A study of Mus musculus with 6 samples.

Results

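The genes described here encode the contractile apparatus of smooth muscle and the factors that switch it on. They are a list of 34 named genes, and 33 of them were measured under a single gene symbol among the 18710 genes tested. Members were chosen by name, and for each gene the brightest of its probe sets by the mean of all arrays was used. Mkl1 was measured under its current symbol Mrtfa. Itpr1, which encodes a calcium release channel, was not analysed here. All 33 measured genes passed the filter on low values, an intensity of at least 15 on at least 3 of the 6 arrays. The lowest mean was that of Cnn1, at 47.5. Actg2, Myh11, Lmod1, Synm, Ldb3, Kcnmb1 and Myocd also averaged below 106, the lowest array median, in both groups.

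The RNA came from spleens of mouse embryos at E13.5, when the organ is a small mesenchymal body beside the stomach. Total RNA was measured on Affymetrix whole-transcript gene arrays, 3 from embryos labelled Tlx1 homozygous and 3 from embryos labelled Tlx1 heterozygous. Both groups carry an altered Tlx1 gene on the labels' wording, which gives the zygosity and neither the allele nor the strain. No wild-type spleen was compared, and homozygous is read as homozygous for the altered allele. Tlx1 encodes a homeobox transcription factor without which mice are born lacking a spleen. Its intensity was 171, 209 and 200 on the homozygous arrays and 825, 706 and 719 on the heterozygous arrays, a log2 fold change of −1.95 ± 0.09 (SE; limma adjusted p = 1.3e-05). The position of its probe set relative to the alteration was not given, so the signal left in homozygous spleens is no measure of working transcript. Of 7 spleen mesenchyme markers measured, the lowest mean over all 6 arrays was that of Nkx2-3, at 379. On homozygous arrays alone Tlx1 averaged 193, Nkx3-2 236 and Nkx2-5 243. Array medians lay between 106 and 110 intensity units, and pairs of arrays had correlations over genes of 0.995 to 0.997 within a group and 0.989 to 0.993 across groups. The labels do not say whether replicates were separate embryos, so p-values measure the spread between these arrays, which may be technical.

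Smooth muscle shortens when actin filaments, anchored through adhesion plaques and dense bodies, are pulled by filaments of smooth muscle myosin. Calcium release activates myosin light chain kinase, which phosphorylates the regulatory light chain, and a myosin phosphatase reverses this. Transcription of most of these genes is driven by serum response factor (SRF), which binds a short A/T-rich element called the CArG box together with myocardin or the related cofactor encoded by Mrtfa. In the spleen, contractile cells form the capsule, the trabeculae and the walls of arteries, and embryonic mesenchyme can express part of the set before muscle matures.

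The contractile genes did not move as a block in homozygous spleens. Desmin (Des), leiomodin (Lmod1), Ldb3, the myosin light chain kinase gene Mylk, Csrp2 and Tpm1 were higher, by 1.16-fold to 1.55-fold. Lmcd1, Csrp1 and Synpo2 were lower, with Lmcd1 at 2.01-fold lower and Csrp1 at 1.66-fold lower. The usual markers of smooth muscle, Acta2, Actg2, Myh11, Tagln and Cnn1, did not pass the test. Thus 6 of 33 genes (18.2%) were called higher and 3 (9.09%) lower at an adjusted p below 0.05 in limma, while over all 18710 genes tested 10.4% were called higher and 6.56% lower, together 17.0%. The median log2 fold change was 0.09 for the contractile genes and 0.02 for all genes, and 20 of the 33 estimates were above 0. The median of the contractile genes was 0.04 with the mean of all probe sets or the second brightest per gene, 0.05 after cyclic loess and 0.04 without homozygous replicate 3. Groups did not overlap for 15 of the 33 genes, 7 higher and 8 lower in homozygous spleens (45.5% together), beside 38.3% of all genes, 21.1% higher and 17.2% lower. With array medians centred the calls were 5 higher and 4 lower, beside 1778 higher and 1373 lower over all genes. Of all calls 61.4% were higher before this centring and 56.4% after it. Fewer cells of a type and less RNA per cell cannot be told apart in such bulk samples, which holds for each difference below.

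**Figure D1:**
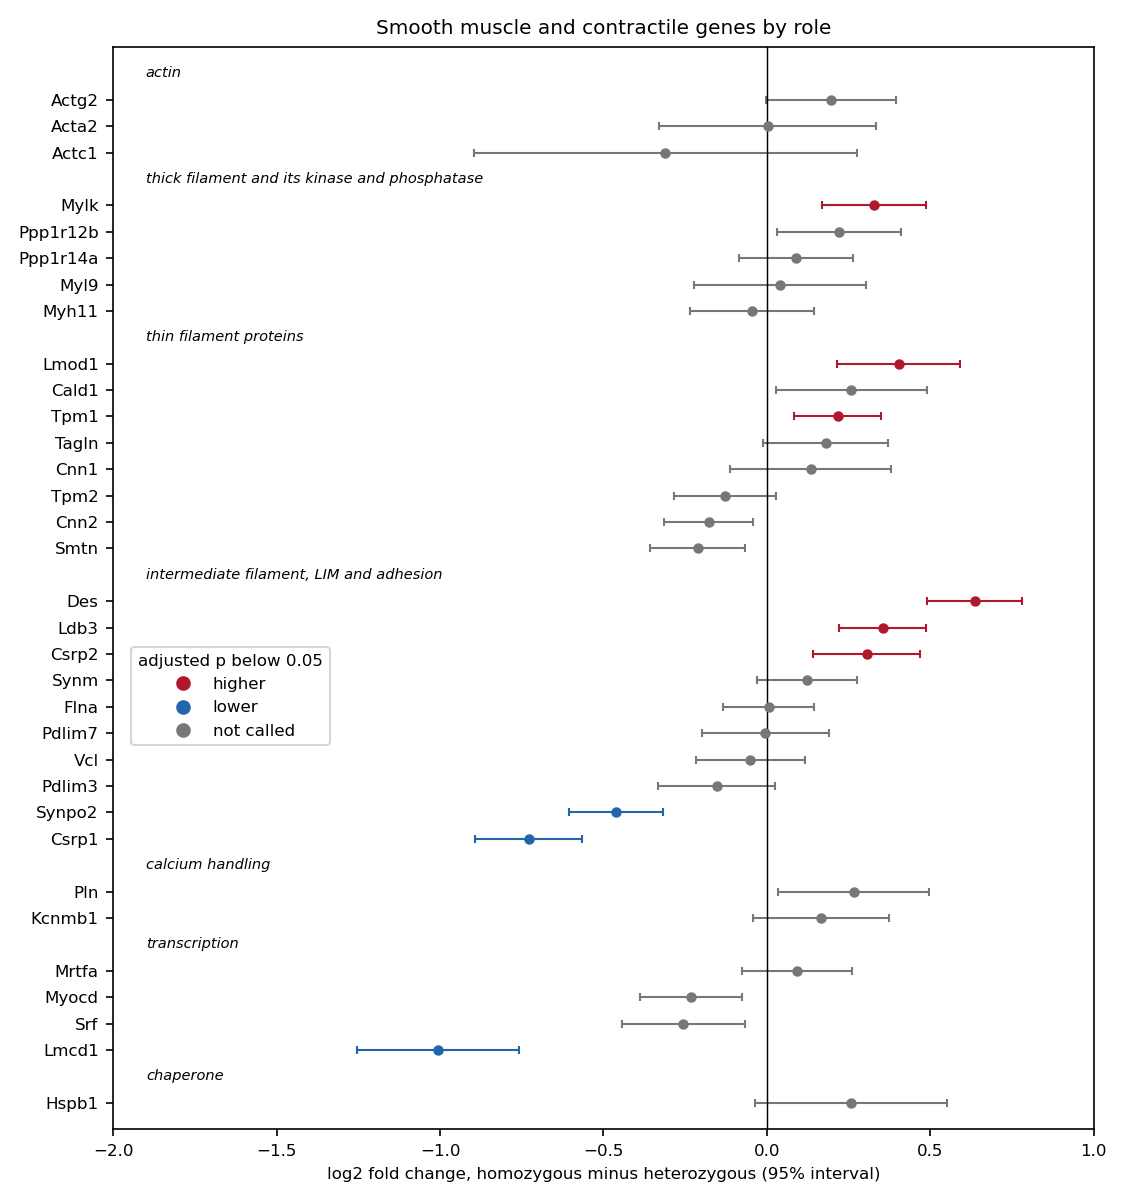
Log2 fold change, homozygous minus heterozygous, of each of the 33 genes, grouped by role, with bars for the unadjusted 95% interval; red and blue mark genes called higher or lower at an adjusted p below 0.05 and grey those not called. Estimates run from −1.01 for Lmcd1 to 0.64 for Des, and the 3 actin genes all have intervals that cross 0.

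Promoter sequence was examined because SRF binding sites are the feature these genes are known to share. RefSeq promoters of the build GRCm38.p6, 250 bases before to 50 after each start, matched 28 of the 33 measured genes, 5 of them with 2 starts. A CArG box, searched by its consensus in a form that reads alike on both strands, lay in a promoter of 7 of these 28 genes (25%), and in 1.81% of the 27025 genes in the promoter table. The hexamer CATTCC, known as a binding motif of TEAD factors and searched on both strands, lay in 11 of the 28 (39.3%) and in 16.6% of all. The box was present in 1 of 5 genes called higher, Ldb3, in 1 of 3 called lower, Lmcd1, and in 5 of 20 not called. It was therefore found on both sides of the comparison and among genes that did not pass. No match says only that these letters are not in this window. The whole promoters of Ldb3, chr14:34588632-34588931 (minus strand), and Lmcd1, chr6:112273508-112273807 (plus strand), are shown because these were the called genes that held a box, in capitals. The box begins 35 bases before this start of Ldb3 and 215 bases before that of Lmcd1.
Ldb3: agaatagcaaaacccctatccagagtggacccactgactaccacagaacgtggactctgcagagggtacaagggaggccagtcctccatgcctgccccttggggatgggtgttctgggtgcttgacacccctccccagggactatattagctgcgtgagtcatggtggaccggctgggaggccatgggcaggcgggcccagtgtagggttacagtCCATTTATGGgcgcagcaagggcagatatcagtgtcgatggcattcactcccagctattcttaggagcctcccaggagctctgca
Lmcd1: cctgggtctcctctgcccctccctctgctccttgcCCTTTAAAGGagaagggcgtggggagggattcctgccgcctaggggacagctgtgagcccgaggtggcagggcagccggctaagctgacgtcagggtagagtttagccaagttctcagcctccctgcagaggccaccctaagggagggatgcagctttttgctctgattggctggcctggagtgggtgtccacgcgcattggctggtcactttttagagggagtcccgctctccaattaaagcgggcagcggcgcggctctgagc

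The boxes of the 5 uncalled genes are shown with 20 bases on each side, so that the element can be compared between genes of different behaviour. They lie at chr17:46556195-46556264 (minus strand) for Srf, which holds a pair, chr2:114052893-114052942 (minus strand) for Actc1, chr2:156775283-156775332 (plus strand) for Myl9, chr10:79988524-79988573 (plus strand) for Cnn2 and chr14:20929151-20929200 (plus strand) for Vcl. Capitals again mark the box.
Srf: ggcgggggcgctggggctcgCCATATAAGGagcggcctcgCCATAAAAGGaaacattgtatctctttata
Actc1: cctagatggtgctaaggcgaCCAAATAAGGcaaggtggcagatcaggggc
Myl9: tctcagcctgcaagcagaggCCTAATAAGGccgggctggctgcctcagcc
Cnn2: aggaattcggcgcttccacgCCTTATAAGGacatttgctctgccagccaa
Vcl: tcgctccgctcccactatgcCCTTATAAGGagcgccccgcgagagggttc

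The actin genes did not pass the test, and the heterozygous arrays differed among themselves. Acta2, the alpha actin of smooth muscle, was at 802, 829 and 862 on the homozygous arrays and at 935, 965 and 632 on the heterozygous arrays. Its homozygous values lay between the heterozygous ones, and the log2 fold change was 0.0025 ± 0.15 (SE), with a 95% interval of −0.33 to 0.33. Actc1, the alpha actin of heart muscle that also appears in immature muscle, was at 328, 336 and 416 on homozygous arrays against 666, 461 and 285 on heterozygous arrays (−0.31 ± 0.26, adjusted p = 0.432). Heterozygous replicate 3 was the lowest of all 6 arrays for both genes. Without it Actc1 was at −0.63 with an adjusted p of 0.0429 and Acta2 at −0.19 with an adjusted p of 0.115. Actg2, the gamma actin of visceral smooth muscle, was at 82.3, 91.4 and 103 on homozygous arrays against 76.8, 80.2 and 83.4 on heterozygous arrays (0.20 ± 0.09, adjusted p = 0.152), with groups that overlapped by a single array. The actin genes are close paralogs in coding sequence, so signal of one on the probes of another cannot be told apart from its own here.

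Among genes of the myosin filament and its regulation, the kinase rose and the myosin chains did not pass. Mylk, whose product phosphorylates the regulatory light chain, was at 284, 296 and 316 on homozygous arrays and at 237, 251 and 226 on heterozygous arrays. All homozygous values lay above all heterozygous ones, a log2 fold change of 0.33 ± 0.07 (SE; limma adjusted p = 0.0173). The adjusted p was 0.0537 without heterozygous replicate 1. Myh11, the smooth muscle myosin heavy chain, averaged 90.3 ± 9.53 in homozygous and 93.0 ± 3.53 in heterozygous spleens (SD, n = 3 each), with a 95% interval of −0.23 to 0.14. Myl9, the regulatory light chain, was at 427, 517 and 547 on homozygous arrays against 498, 532 and 420 on heterozygous arrays (0.04 ± 0.11, adjusted p = 0.833). It turned to −0.058 without heterozygous replicate 3, again the lowest array. Ppp1r14a, an inhibitor of the myosin phosphatase, was at 0.09 ± 0.08 (adjusted p = 0.445). Ppp1r12b, a targeting subunit of that phosphatase, was at 0.22 ± 0.08 on its brightest probe set (adjusted p = 0.0992). It had 7 probe sets, of which 2 had differences above 0 and 5 below, and the second brightest gave −0.13, so no direction is given for this gene.

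Proteins that lie along the thin filament moved in part. Lmod1, a nucleator of actin filaments in smooth muscle, was at 81.3, 74.1 and 83.2 on homozygous arrays and at 66.3, 56.0 and 57.6 on heterozygous arrays. The groups did not overlap, and the log2 fold change was 0.40 ± 0.08 (SE; limma adjusted p = 0.0152). Adjusted p-values were 0.0559 without heterozygous replicate 2, 0.0613 without homozygous replicate 1 and 0.0518 without homozygous replicate 3. After cyclic loess the estimate of Lmod1 was 0.30 (adjusted p = 0.0442). Uncalled genes that also averaged below the lowest array median had lower estimates in that fit too. Actg2 was at 0.11, Cnn1 at 0.02, Kcnmb1 at 0.05, Synm at 0.05 and Myh11 at −0.13. Tpm1, a tropomyosin that winds along actin, was at 2793, 2839 and 2711 on homozygous arrays and at 2339, 2407 and 2433 on heterozygous arrays. This rise was small (0.22 ± 0.06, adjusted p = 0.0374), and although the groups were apart its call was lost in each of the 6 fits without 1 array, at adjusted p-values of 0.0543 to 0.119. The adjusted p of Tpm1 was also 0.0565 with array medians centred and 0.0742 with the replicate number as a block.

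The remaining 6 thin filament genes did not pass. Cald1, the caldesmon that restrains myosin on actin, was at 736, 862 and 664 on homozygous arrays and at 585, 618 and 678 on heterozygous arrays (0.26 ± 0.10, adjusted p = 0.113). Tagln, an actin cross-linker widely used as an early smooth muscle marker, was at 137, 147 and 166 on homozygous arrays against 127, 141 and 128 on heterozygous arrays. The ranges overlapped, with an estimate of 0.18 ± 0.08 (adjusted p = 0.17). Cnn1, the calponin of differentiated smooth muscle, was at 0.13 ± 0.11 (adjusted p = 0.419) and Tpm2 at −0.13 ± 0.07 (adjusted p = 0.22). Cnn2, a calponin of wider expression, and Smtn, which encodes the actin-associated protein smoothelin, had lower values on every homozygous array. Cnn2 was at 691, 725 and 686 on homozygous arrays against 816, 785 and 778 on heterozygous arrays (−0.18 ± 0.06, adjusted p = 0.0735). Smtn was at 413, 431 and 457 on homozygous arrays against 519, 496 and 493 on heterozygous arrays (−0.21 ± 0.06, adjusted p = 0.0543).

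**Figure D2:**
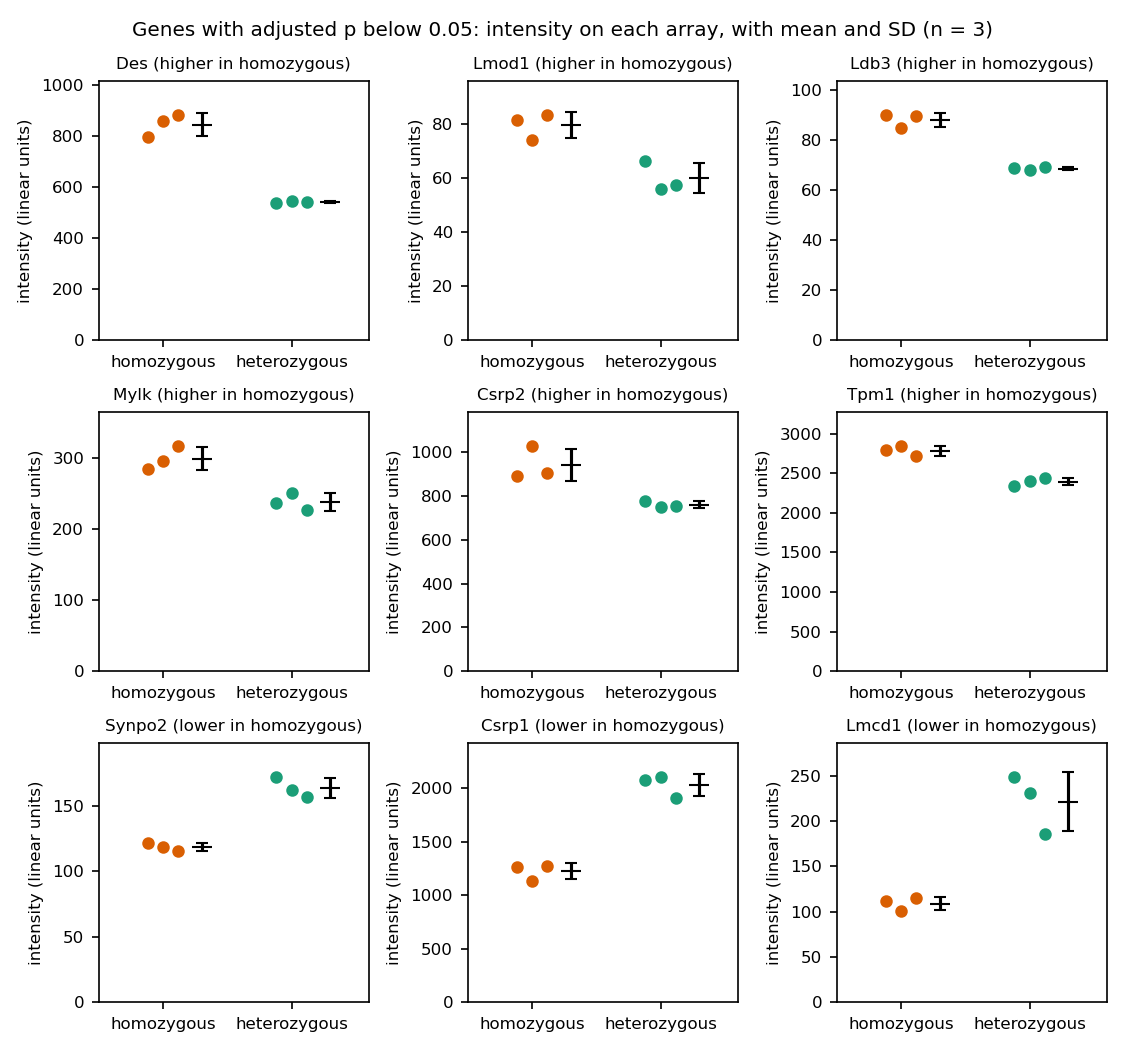
Intensity on a linear scale of the 9 genes with an adjusted p below 0.05, a panel per gene, with the 3 homozygous arrays left of the 3 heterozygous arrays and bars for mean and SD. In each panel the groups are apart. The homozygous arrays of Lmcd1 lie between 101 and 115 and its heterozygous arrays between 185 and 248.

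Genes of intermediate filaments, LIM proteins and adhesion sites held 5 of the 9 calls, in both directions. Of these 10 genes 3 were called higher (30.0%, beside 10.4% of all genes) and 2 lower (20%, beside 6.56%). The gene of desmin, the muscle intermediate filament protein, gave the largest rise in the set. Des was at 795, 860 and 882 on homozygous arrays and at 539, 547 and 544 on heterozygous arrays. The heterozygous arrays differed by little among themselves, and the log2 fold change was 0.64 ± 0.06 (SE; limma adjusted p = 0.000757). Its partner Synm, which encodes the filament protein synemin, was at 103, 105 and 105 on homozygous arrays against 88.6, 98.3 and 101 on heterozygous arrays, with groups just apart and an estimate of 0.12 ± 0.07 (adjusted p = 0.229).

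Ldb3, a PDZ and LIM protein of the muscle Z-disc, was at 89.9, 84.7 and 89.6 on homozygous arrays and at 68.8, 68.1 and 69.1 on heterozygous arrays. Both groups were tight and apart (0.35 ± 0.06, adjusted p = 0.00691). After cyclic loess the estimate of Ldb3, which is dim, was lower, at 0.26 (adjusted p = 0.0207). The relatives Pdlim3, at −0.15 ± 0.08 (adjusted p = 0.203), and Pdlim7, at −0.0052 ± 0.09 (adjusted p = 0.973), did not pass, and the estimate of Pdlim7 turned to 0.059 after quantile normalization and 0.051 after cyclic loess. The genes Csrp1 and Csrp2, whose cysteine-rich products carry LIM domains and bind the actin cytoskeleton, went opposite ways. Csrp1 was at 1265, 1137 and 1273 on homozygous arrays and at 2077, 2102 and 1912 on heterozygous arrays (−0.73 ± 0.07, adjusted p = 0.000732). Csrp2 was at 892, 1025 and 902 on homozygous arrays and at 777, 748 and 752 on heterozygous arrays (0.31 ± 0.07, adjusted p = 0.0244). The 2 genes thus passed with opposite signs. The call of Csrp2 was lost without heterozygous replicate 1, 2 or 3 (adjusted p = 0.0572, 0.0801 and 0.0565) and without homozygous replicate 1 (adjusted p = 0.0507).

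Synpo2, which encodes the actin-bundling protein myopodin of the Z-disc and dense bodies, was at 122, 118 and 115 on homozygous arrays and at 172, 162 and 157 on heterozygous arrays. Each homozygous value was below each heterozygous value (−0.46 ± 0.06, adjusted p = 0.00308). The adhesion genes Flna and Vcl did not pass. Flna, whose product filamin A cross-links actin and binds integrins, averaged 3277 ± 150 in homozygous and 3262 ± 11.1 in heterozygous spleens (SD, n = 3 each), with a 95% interval of −0.13 to 0.15. Vcl, encoding the plaque protein vinculin, averaged 531 ± 41.5 in homozygous and 549 ± 14.5 in heterozygous spleens (SD, n = 3 each; −0.05 ± 0.07, adjusted p = 0.666). The estimate of Flna was 0.0056 ± 0.06 and turned to −0.013 with array medians centred, and that of Vcl turned to 0.0093 after quantile normalization and 0.0060 after cyclic loess.

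Neither measured calcium-handling gene passed. Pln, the brake on the calcium pump of the sarcoplasmic reticulum, was at 182, 206 and 172 on homozygous arrays against 150, 140 and 176 on heterozygous arrays (0.27 ± 0.10, adjusted p = 0.105). Without heterozygous replicate 3 it stood at 0.36 with an adjusted p of 0.044. Kcnmb1, the smooth muscle subunit of the large-conductance potassium channel, was at 67.2, 54.3 and 55.4 on homozygous arrays against 55.5, 51.9 and 49.5 on heterozygous arrays (0.17 ± 0.09, adjusted p = 0.238). The small heat shock gene Hspb1, whose product binds actin and is phosphorylated in contracting muscle, was at 222, 293 and 321 on homozygous arrays and at 246, 233 and 212 on heterozygous arrays. Its 2 probe sets gave estimates of 0.26 and 0.29, and the brighter had an adjusted p of 0.197, or 0.0411 without homozygous replicate 1, where the estimate was 0.41.

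Of the 4 transcription genes 1 fell, and the 2 central factors lay just short of the threshold. Lmcd1, a LIM protein that binds Gata6 and limits its activity in cultured cells, was at 111, 101 and 115 on homozygous arrays and at 248, 230 and 185 on heterozygous arrays. The groups were far apart (−1.01 ± 0.11, adjusted p = 0.00113), and this was the only gene of the 33 that changed at least 2-fold. Myocd, encoding the SRF coactivator myocardin, was at 70.5, 72.4 and 72.7 on homozygous arrays against 79.1, 91.0 and 83.9 on heterozygous arrays (−0.23 ± 0.07, adjusted p = 0.0509). Srf was at 665, 626 and 750 on homozygous arrays against 844, 829 and 761 on heterozygous arrays (−0.26 ± 0.08, adjusted p = 0.0648). In both genes each homozygous array was below each heterozygous array, as in 17.2% of all genes. Myocd passed at 5 other settings, among them cyclic loess (−0.33, adjusted p = 0.0221). It did not pass with a variance trend (adjusted p = 0.0788) or without heterozygous replicate 2 (−0.18, adjusted p = 0.175). Srf passed at 4, among them a variance trend (adjusted p = 0.0253) and the fit without homozygous replicate 3 (−0.33, adjusted p = 0.0397). Adjusted p-values of Srf were 0.136 after quantile normalization, 0.147 after cyclic loess and 0.173 without heterozygous replicate 1. Mrtfa, which links SRF to the state of the actin cytoskeleton, was at 283, 259 and 301 on homozygous arrays against 274, 262 and 253 on heterozygous arrays (0.09 ± 0.07, adjusted p = 0.412).

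**Figure D3:**
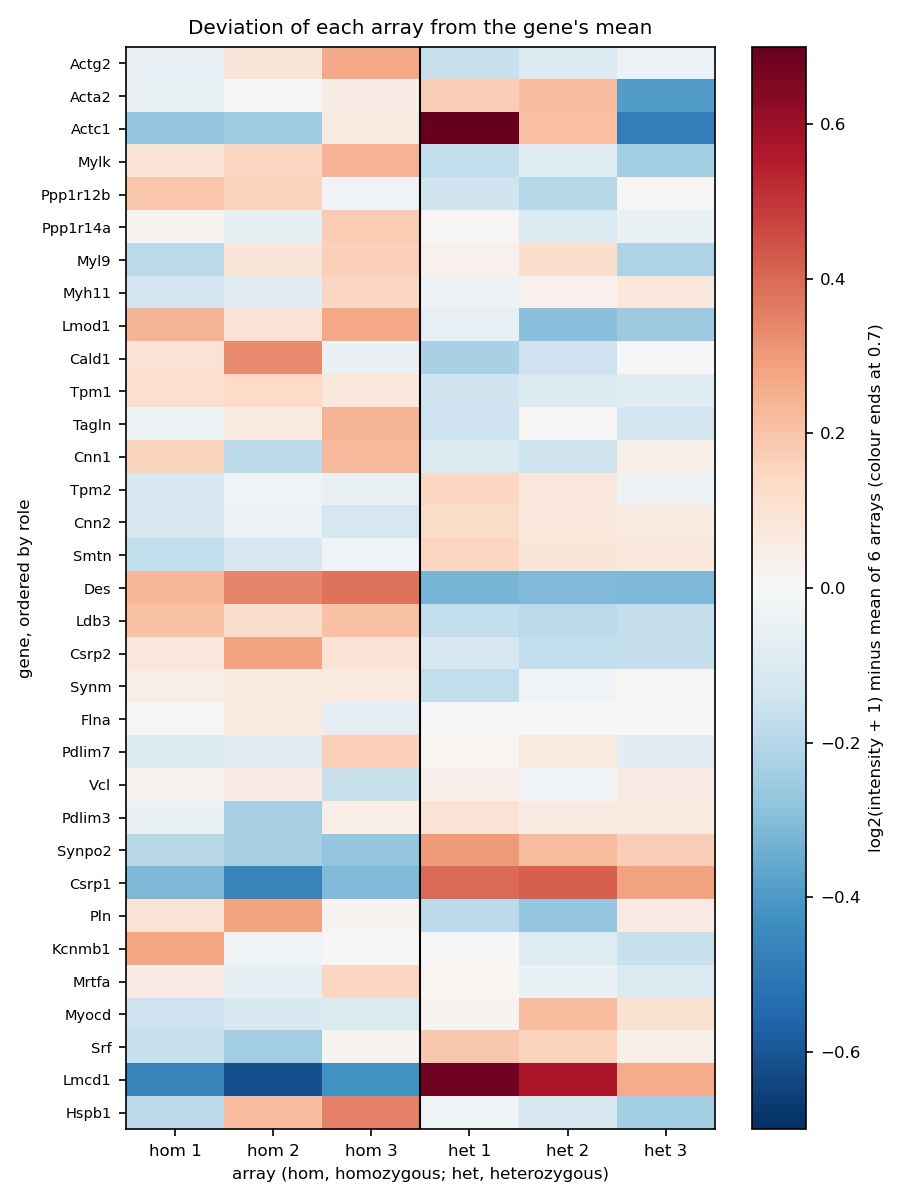
Deviation of log2(intensity + 1) on each array from the gene's mean over 6 arrays, genes ordered by role and homozygous arrays left of heterozygous arrays; colours end at 0.7. Des, Ldb3 and Csrp1 split by genotype on every array, whereas Acta2 and Actc1 split within the heterozygous group, where replicate 3 is the low array.

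Across the 24 genes not called, 7 had an unadjusted p below 0.05 (29.2%, beside 20.6% of all uncalled genes). Groups did not overlap for 6 of the 24, 5 lower and 1 higher in homozygous spleens, which is 25% beside 25.7% of all uncalled genes and so close to the background. For 23 of the 24 the unadjusted 95% interval stayed within a 1.5-fold change in either direction, and Actc1 was the exception. Single arrays also differed in level across the set. Homozygous replicate 3 was the highest of its group for 20 of 33 contractile genes (60.6%), beside 41.6% of all genes. Heterozygous arrays 1 and 3 had more signal for the Y-linked gene Eif2s3y (600 and 735) than the other arrays (391 to 417), and less for Xist (901 and 812, against 1478 to 1856). With Y-linked signal as a covariate 3 of the contractile genes were higher and 3 lower, beside 1140 higher and 507 lower over all genes. In that fit the adjusted p was 0.127 for Mylk, 0.0974 for Csrp2 and 0.15 for Tpm1.

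**Figure D4:**
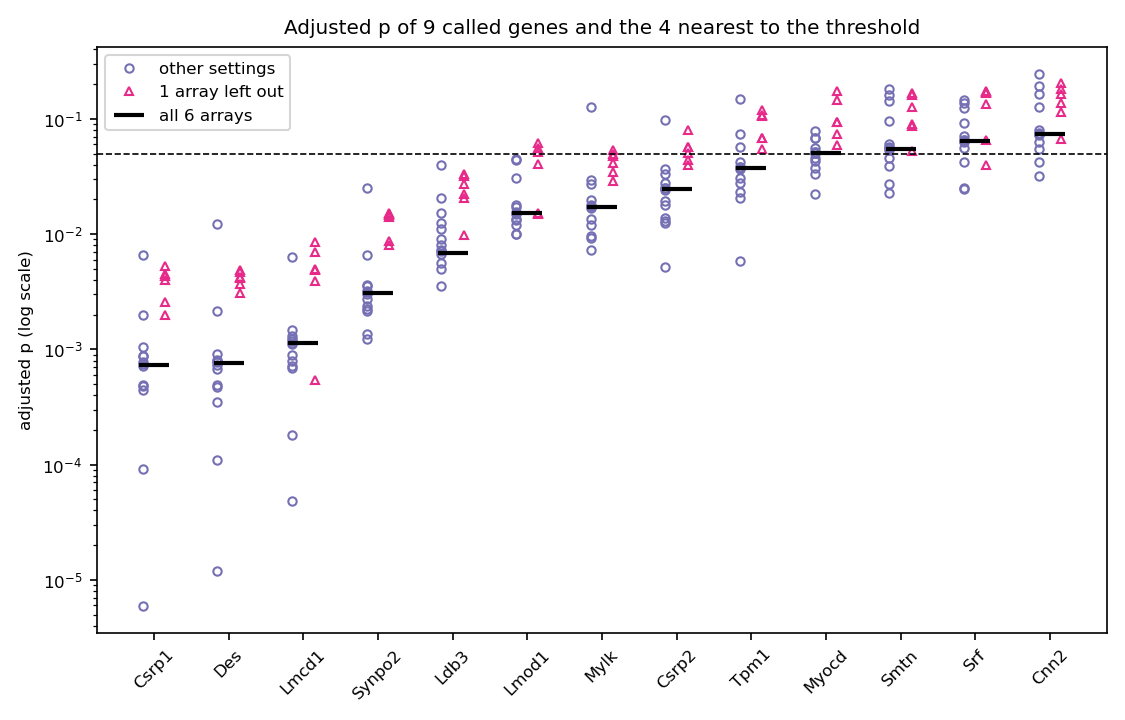
Adjusted p on a log axis for the 9 called genes and the 4 uncalled genes with separate groups nearest the threshold, in the fit of all 6 arrays (black bar), at 13 other settings (circles) and in 6 fits without 1 array (triangles); the dashed line is 0.05. Csrp1, Des, Lmcd1, Synpo2 and Ldb3 stay below the line throughout, and Tpm1 lies above it in all fits without 1 array.

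Other genes of smooth muscle, none of them in the set above, also went both ways. Of 35 measured further smooth muscle genes 6 were higher (17.1%, beside 10.4% of all genes) and 4 lower (11.4%, beside 6.56%), with a median log2 fold change of 0.01. Gucy1a1, a subunit of the nitric oxide receptor guanylate cyclase that relaxes muscle, rose to 894 ± 56.2 in homozygous spleens, against 630 ± 40.3 in heterozygous spleens (SD, n = 3 each; 0.51 ± 0.07, limma adjusted p = 0.00447). Itga8, an integrin chain of mesenchyme and smooth muscle, was at 1302 ± 125 in homozygous and 2369 ± 158 in heterozygous spleens (SD, n = 3 each), a fall of −0.87 ± 0.09. The muscarinic receptor gene Chrm2 fell by 0.46 on the log2 scale. Among 23 measured regulators of smooth muscle transcription 4 were higher and none lower in limma, with a median of −0.03, and 1 was lower at an unadjusted p below 0.05. The share called higher was 17.4%, beside 10.4% of all genes, and none was lower, beside 6.56%. In either direction together the share, 17.4%, was close to the 17.0% of all genes. Those called higher included Prrx1 (0.75), a mesenchymal homeobox gene, Klf4 (0.57), which represses contractile genes, and Gata6 (0.52), a factor of smooth muscle and endoderm.

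Of 31 measured genes of non-muscle actin and myosin 2 were higher (6.45%, beside 10.4% of all genes) and 8 lower (25.8%, beside 6.56%), with a median of −0.04. The LIM protein gene Pdlim1 was at 285 ± 16.3 in homozygous and 535 ± 47.1 in heterozygous spleens (SD, n = 3 each; −0.91 ± 0.08, adjusted p = 0.00044). Pdlim1 lies on chromosome 19, as does Tlx1, and the part of linkage to the altered allele was not tested. Tagln2, a relative of Tagln, fell by 0.48, and Tln2, a talin that couples integrins to actin, rose by 0.47.

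**Figure D5:**
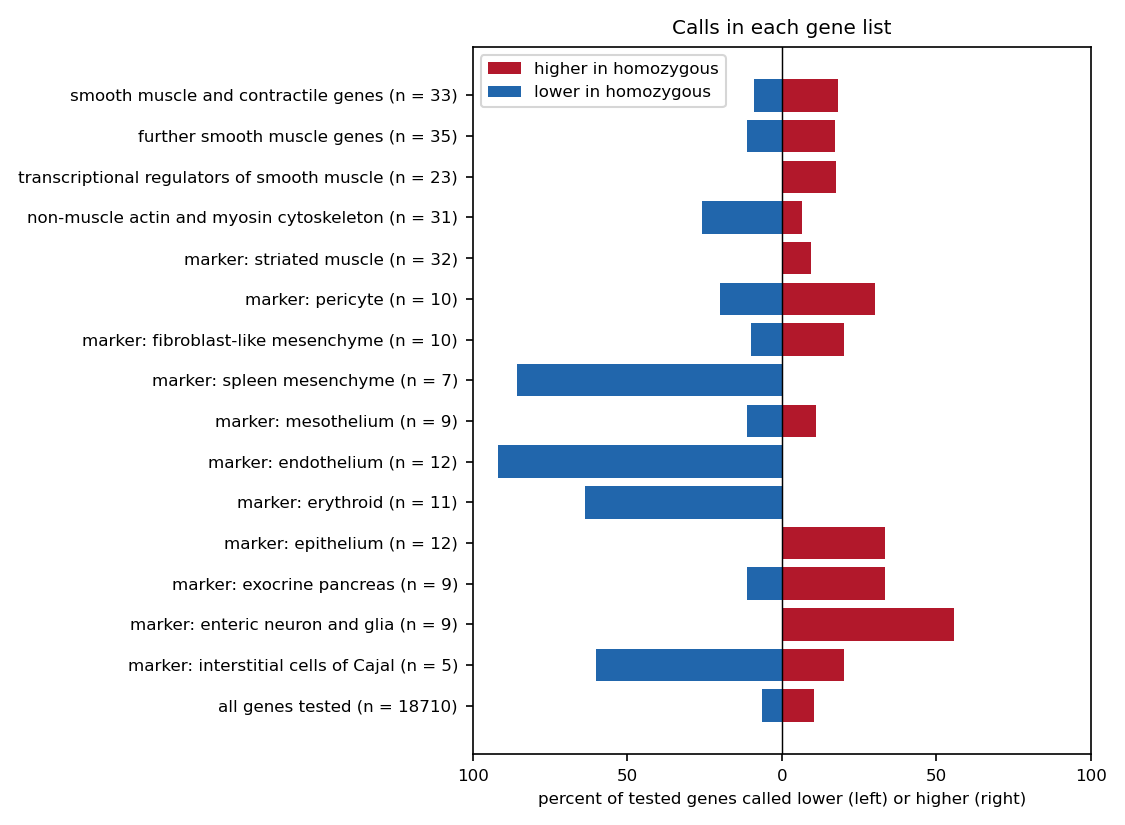
Percent of measured genes in each list called lower (blue, left) or higher (red, right) in homozygous spleens at an adjusted p below 0.05, with the number measured beside the name. The contractile genes have calls on both sides, 18.2% higher and 9.09% lower, while endothelium and erythroid markers have calls on the lower side alone.

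Markers of other cell types moved with genotype in the same arrays, and their part in the contractile results was not tested. Over all genes 10.4% were higher and 6.56% lower, and shares of each marker list are given against these. Of 12 endothelium markers 11 were lower (91.7%) and none higher, with summed intensities of 6237 to 6624 in homozygous and 8855 to 9164 in heterozygous spleens. Of 11 erythroid markers 7 were lower (63.6%) and none higher (sums of 10417 to 11193 in homozygous and 13459 to 14574 in heterozygous spleens). Spleen mesenchyme markers, which include Tlx1, had 6 of 7 lower (85.7%; 6813 to 7501 in homozygous, 9132 to 9334 in heterozygous). Rises were found in 4 of 12 epithelium markers (33.3%; 4481 to 4895 in homozygous, 3494 to 4365 in heterozygous), in 3 of 9 exocrine pancreas markers with 1 fall (33.3% and 11.1%; 2249 to 2534 in homozygous, 739 to 1499 in heterozygous) and in 5 of 9 enteric neuron and glia markers (55.6%; 2560 to 2721 in homozygous, 1845 to 2020 in heterozygous). At an unadjusted p below 0.05 in limma, 0 endothelium and 0 erythroid markers were higher, and 0 epithelium and 0 enteric markers were lower. The lowest intensity of any probe set on any array was 2.75, so a value above 0 does not show that a marker was expressed.

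Striated muscle also uses Des, Ldb3, Actc1 and Pln. Of 32 striated muscle markers 3 were higher (9.38%, beside 10.4% of all genes) and none lower in limma. At an unadjusted p below 0.05, 9 were higher (28.1%, beside 20.7% of all genes) and 0 lower. Their median log2 fold change was 0.05, and their sums overlapped at 2711 to 2968 in homozygous and 2631 to 2892 in heterozygous spleens. The 3 were Myl3 (0.32), Tnni2 (0.30) and Myog (0.23), and the lowest mean in this list was 23.3 for Myf5. Pericytes share contractile genes with smooth muscle, and of their 10 markers 3 were higher and 2 lower (30.0% and 20%; 5846 to 6132 in homozygous, 5402 to 5714 in heterozygous). The channel subunit genes Abcc9 and Kcnj8 rose by 0.56 and 0.53, while Anpep fell by 0.51. Of 10 fibroblast-like markers 2 were higher and 1 lower (20% and 10%; 19018 to 21143 in homozygous, 17376 to 18058 in heterozygous), and of 9 mesothelium markers 1 was higher and 1 lower (11.1% each; 7623 to 7718 in homozygous, 7562 to 8075 in heterozygous). Of 5 markers of interstitial cells of Cajal 1 was higher and 3 lower (20% and 60.0%; 2370 to 2471 in homozygous, 2794 to 2921 in heterozygous). Some genes stand in more than 1 list, so the lists are not independent.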

How the data were processed

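The deposited values are intensities for each probe set and array. Per the submitters' processing notes they come from GCRMA, which corrects background by probe sequence and normalizes between arrays. Its version and the build were not stated there. They are linear, so log2(intensity + 1) was analysed. The added 1 pulls fold changes of dim genes toward 0. Of 35512 probe sets 21789 had 1 symbol in the platform annotation, and 20424 of these had a log2 value of at least 4 on at least 3 arrays. The brightest per gene gave 18710 genes. Symbols absent from the annotation were looked up among RefSeq synonyms.

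Homozygous minus heterozygous was tested on all 6 arrays (limma 3.58.1 under R 4.3.3, lmFit and eBayes, two-sided), with Benjamini-Hochberg adjustment over all genes and calls at an adjusted p below 0.05. The procedure was tested on simulated data. The number of arrays limits precision, and scan dates were not used here.

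The contractile genes and the other lists, 3 of related genes and 11 of markers, were chosen with earlier results of these data known. All members are named, and from each other list at most 3 called genes with the largest change. Lists are described by counts beside the shares over all genes, with no list test. A further list is not reported here. Alternatives were other filters, pseudocounts, probe sets, scalings and variance models, a replicate block, a Y-linked covariate (mean log2 level of Eif2s3y, Kdm5d and Uty) and leaving out each array.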

Additional observations from a re-analysis of the deposited data

How the results depend on the processing

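Of the 9 called contractile genes 5 (Csrp1, Des, Lmcd1, Synpo2 and Ldb3) kept their call at all 19 alternative settings, and 4 (Mylk, Lmod1, Csrp2 and Tpm1) lost it at some. None of the 9 changed sign at these settings. The number of contractile genes called lower was 5 with a log2 filter of 5, 5 with log2(value + 16), 6 with a variance trend and 7 with array weights. In the same order 1356, 1483, 1667 and 1744 of all genes were called lower, against 1227 in the main fit. Of the uncalled contractile genes 8 passed at some setting. With the Y-linked covariate 1140 genes were higher and 507 lower over all genes, and 3 contractile genes were higher. Over the fits without 1 array, genes called higher ranged from 699 to 2319 and lower from 499 to 1244, and contractile genes called higher from 3 to 5 and lower from 3 to 4. Fewer arrays enter these fits. Estimates turned in sign for 7 uncalled genes, 6 of them with estimates near 0 and Ppp1r12b (0.22) with the choice of probe set. Acta2 was at −0.016 with medians centred, −0.067 with array weights and −0.25 with the Y-linked covariate, and ranged from −0.19 to 0.11 without 1 array. Myl9 was at −0.066 with array weights and −0.14 with the covariate (−0.058 to 0.15 without 1 array). Flna was at −0.013 with medians centred (−0.028 to 0.038). Pdlim7 was at 0.059 after quantile normalization and 0.051 after cyclic loess (−0.090 to 0.042), and Vcl at 0.0093 and 0.0060 after the same (−0.091 to 0.016). Ppp1r12b was at −0.064 for the mean of its probe sets and −0.13 for the second brightest. Myh11 ranged from −0.13 to 0.011 without 1 array. The cause was not tested. Deviations from the group mean had correlations of −0.01, 0.04 and −0.11 between same-numbered arrays of the groups. Arrays of unlike number had −0.09 to 0.10. With 3 arrays per group, deviations from the mean are tied to each other, so this check cannot decide whether same-numbered arrays were paired. With the replicate block 2091 genes were higher and 1072 lower, 5 contractile genes were higher and 3 lower, and the 1 contractile call lost was that of Tpm1.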
